A study of Mus musculus with 5 samples.

Results

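The sarcomere and contractile genes are 43 genes chosen by name for where their proteins sit in the contractile unit of striated muscle, and their rows were read from a table of 54232 genes. They cover the thin filament, the myosin light chains and myosin-binding proteins, titin, the M-band, the Z-disc and the factors that help assemble these structures, while the myosin heavy chains were left out. All 43 reached 5 normalized counts in 1 or more samples, the filter that 18156 genes in all passed. RNA sequencing was performed on primary myoblasts purified with magnetic beads from leg muscles of mice aged 6 to 8 weeks and differentiated for 72 h, from WT mice (n = 3) and from Elmo2EID/EID mice (n = 2). The mice were on a mixed genetic background. Elmo2EID/EID mice carry on both alleles, in every tissue, a knock-in that replaces isoleucine with aspartate in ELMO2, a scaffold that works with DOCK1 to activate RAC1, and that biases ELMO2 towards its open conformation. The comparison asks whether the contractile programme of the differentiated cells differed with this change, and a normalized count below is a gene's uniquely mapped reads divided by the size factor of its sample.

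The sarcomere is the repeated unit between Z-discs in which myosin thick filaments slide along actin thin filaments. Tropomyosin and the troponin complex lie on the thin filament and make contraction depend on calcium, titin spans from Z-disc to M-band, and the M-band links neighbouring thick filaments. Many of these proteins exist as fetal, slow and fast isoforms from separate genes, and forming skeletal muscle is known to use isoforms that the adult heart keeps, such as cardiac actin and cardiac troponin T, before the adult forms take over.

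The libraries held 35021856 to 49381544 reads on genes, and the members took 9.08%, 9.64% and 9.18% of them in WT, against 9.14% and 9.90% in Elmo2EID/EID. The labels do not say whether these replicates came from separate animals or cultures. The study's reporting summary says of its primary-cell work in general that separate mice were the usual source, without naming these libraries. The p-values measure the spread between these samples, part of which may be technical. The knock-in changes a codon and leaves the transcript in place, so the level of Elmo2 does not check the labels, and it was 1642, 1539 and 1659.5 in WT, against 1441 and 1327 in Elmo2EID/EID (log2 fold change -0.22, adjusted p = 0.226). Markers of the cell type were high in both groups: the 7 myoblast and myotube markers (Myod1, Myog, Mymk, Mymx, Cdh15, Chrna1 and Mef2c) summed to 336671 to 359900.4 normalized counts in WT and 338791 to 340120.0 in Elmo2EID/EID, and none of the 7 was called by limma, edgeR or DESeq2, beside 2.23%, 2.25% and 5.56% of all genes, with 1 at an unadjusted p under 0.05, beside 15.2%. These shares are near the background and do not show that the groups were alike. In these bulk samples, a lower share of differentiated cells and less RNA per cell cannot be told apart.

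Of the 43 members, 1 fell in Elmo2EID/EID, none rose and 42 did not pass the threshold (limma, Benjamini-Hochberg adjusted p under 0.05 over all genes tested). The gene that fell was Myom3, which codes for myomesin 3, a protein of the M-band. Over all genes tested, 2.23% were called, 1.09% higher and 1.14% lower, and the share of members called, 1 of 43, was near this background. The median log2 fold change of the members was 0.02, beside 0.01 for all genes tested, and the members ranged from -0.71 (Myom3) to 0.76 (Xirp2, whose product binds actin at the ends of myofibrils). In 34 of 43 the log2 fold change was smaller than 0.2 in either direction. The 95% interval of the fold change lay within 1.5-fold in 32 members and within 2-fold in 40, against 50.0% and 65.4% of all genes tested. These shares were not compared at like depth. The members other than Myl3 and Myoz3 had means from 1787 (Mybpc2) to 487517 (Acta1) normalized counts, while a tested gene needed 5 in 1 sample. At an unadjusted p under 0.05, 3 members passed (Myom3, Xirp2 and Myoz1), against 15.2% of all genes. The groups did not overlap in 10 members, 3 higher and 7 lower in Elmo2EID/EID, where 32.6% of all genes did not overlap (16.7% higher and 15.9% lower). On the recovered reads, edgeR called Myom3 alone of the members (over all genes 2.25%, 1.12% higher and 1.13% lower), and DESeq2 called Xirp2 higher and Myom3 and Myoz1 lower (over all genes 5.56%, 2.38% higher and 3.18% lower). A block for the replicate number left Myom3 alone called (1.23% of all genes, 0.639% higher and 0.595% lower), and a block with the numbers crossed, chosen after seeing the data, gave 2 members higher and 3 lower (5.73%, 2.62% and 3.11% of all genes). WT replicate 3 has no Elmo2EID/EID sample of its number, so it does not enter the log2 fold changes of either block. That of Myom3 was -0.716 with each block and also without WT replicate 3.

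**Figure D1:**
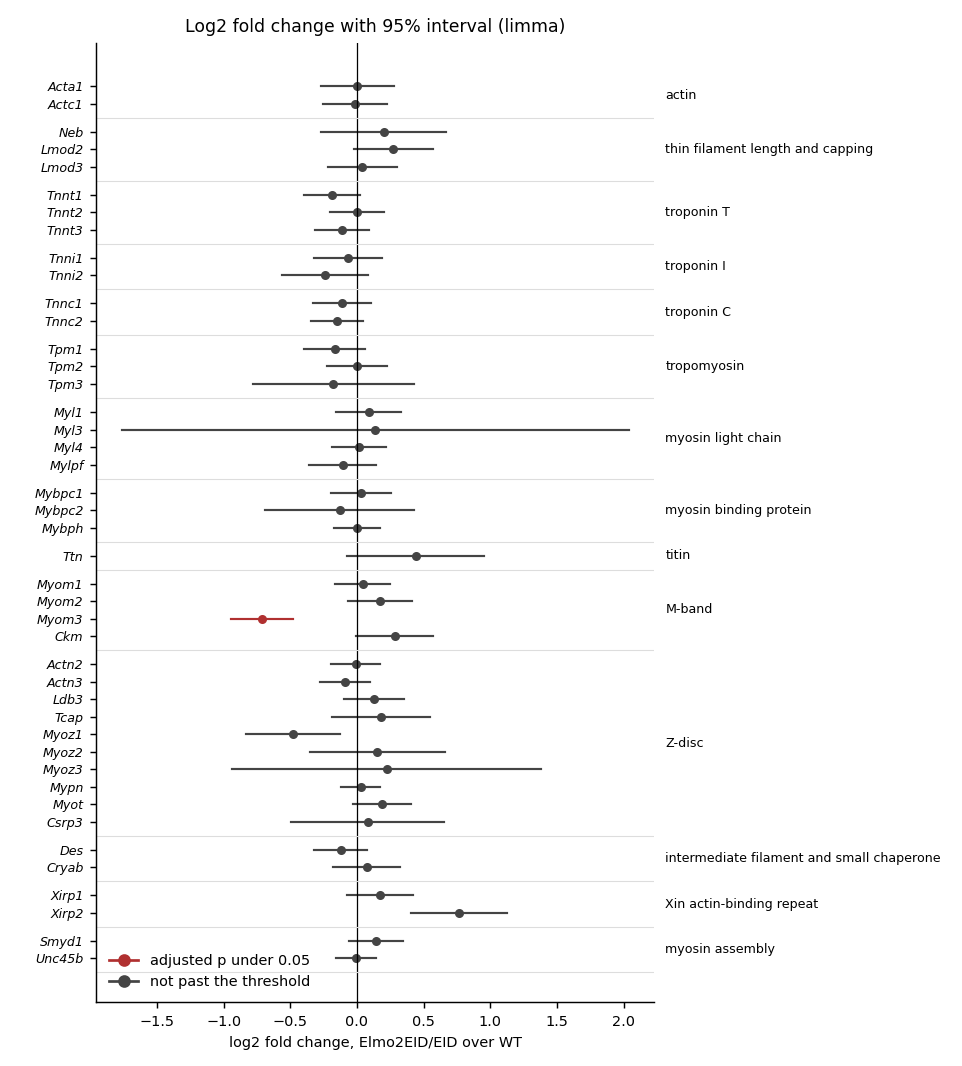
Log2 fold change (Elmo2EID/EID over WT, horizontal axis) of each of the 43 genes, grouped by role; points are limma estimates and lines are 95% intervals. Myom3 alone is drawn in red, at -0.71, as past the adjusted threshold, Xirp2 lies at 0.76 without passing it, and the widest interval belongs to Myl3, a gene with at most 11.2 normalized counts.

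The sequence before the start of transcription is shown for the genes at both ends of this range, Myom3 and Xirp2, and for both sarcomeric actins. The windows are the 250 bases before the RefSeq start on GRCm38.p6, written 5′ to 3′ on the gene's strand. For Actc1 the last 12 bases, which lie in an annotated exon, were left out, and the window falls in an intron of a longer annotated transcript. Capitals mark matches, on either strand, to the E-box CANNTG bound by MyoD and myogenin, to a strict form of the MEF2 box (CTA and TAG with 4 bases between them, each A or T), to the CArG box bound by serum response factor (CC and GG with 6 bases between them, each A or T), to MCAT (CATTCC) and to TATAAA. Looser forms of the MEF2 box, such as one that ends in TAA, were not searched and are not marked. In these forms, Myom3 holds 1 E-box, Xirp2 holds a pair of overlapping E-boxes and a MEF2 box, Acta1 holds a CArG box, 2 E-boxes, an MCAT and a TATAAA, and Actc1 holds a CArG box.
Myom3 (chr4:135759465-135759714, plus strand): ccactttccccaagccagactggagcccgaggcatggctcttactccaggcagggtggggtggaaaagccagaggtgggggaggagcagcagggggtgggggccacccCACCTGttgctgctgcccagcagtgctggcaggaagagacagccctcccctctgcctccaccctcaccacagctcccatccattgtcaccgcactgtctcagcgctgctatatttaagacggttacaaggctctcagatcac
Xirp2 (chr2:67445752-67446001, plus strand): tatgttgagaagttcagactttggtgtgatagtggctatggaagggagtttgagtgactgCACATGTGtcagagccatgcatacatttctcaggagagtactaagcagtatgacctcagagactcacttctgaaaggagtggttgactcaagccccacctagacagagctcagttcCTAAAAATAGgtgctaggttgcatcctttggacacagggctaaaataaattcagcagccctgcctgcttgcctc
Acta1 (chr8:123894776-123895025, minus strand): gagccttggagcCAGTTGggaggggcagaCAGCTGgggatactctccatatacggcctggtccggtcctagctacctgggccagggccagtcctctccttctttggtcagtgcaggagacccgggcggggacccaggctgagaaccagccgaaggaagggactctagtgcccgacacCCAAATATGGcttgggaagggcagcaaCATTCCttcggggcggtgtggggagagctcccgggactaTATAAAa
Actc1 (chr2:114052888-114053125, minus strand): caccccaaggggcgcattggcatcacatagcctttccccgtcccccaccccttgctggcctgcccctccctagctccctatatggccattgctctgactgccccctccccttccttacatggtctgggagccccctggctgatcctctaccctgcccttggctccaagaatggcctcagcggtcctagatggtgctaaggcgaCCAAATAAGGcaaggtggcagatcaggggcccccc

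RefSeq gave 36 such windows for 31 of the 43 members, and 32851 windows in all. The E-box occurred in 86.1% of the members' windows against 66.2% of all windows, MCAT in 25.0% against 12.6% and TATAAA in 16.7% against 12.4%. The rarer CArG box occurred in 16.7% of the members' windows, those of Acta1, Actc1, Ldb3, Myl3 and Myom1, against 1.47% of all. The strict MEF2 box occurred in 8.33%, those of Myoz2, Ttn and Xirp2, against 0.508%. These are matches of letters, and binding was not measured.

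The actins form the core of the thin filament. Acta1, skeletal alpha-actin, held 503288, 499129.6 and 458389 in WT, against 458720.1 and 518055 in Elmo2EID/EID (486936 ± 24809 against 488388 ± 41956, mean ± SD), and its log2 fold change was 0.00 ± 0.11 (SE, adjusted p = 0.994, limma). Actc1, the cardiac alpha-actin that developing skeletal muscle also makes, held 206455, 227790.5 and 217765 in WT, against 228129 and 202529 in Elmo2EID/EID (log2 fold change -0.01). In both genes the groups overlapped, and the intervals, -0.27 to 0.28 for Acta1 and -0.25 to 0.22 for Actc1, lay within 1.5-fold in either direction. Per kb of merged exon, the ratio of Actc1 to Acta1 was 0.389, 0.433 and 0.451 in WT, against 0.472 and 0.371 in Elmo2EID/EID. By this measure cardiac actin was 29.8% ± 1.58 of both actins in WT and 29.6% ± 3.54 in Elmo2EID/EID.

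**Figure D2:**
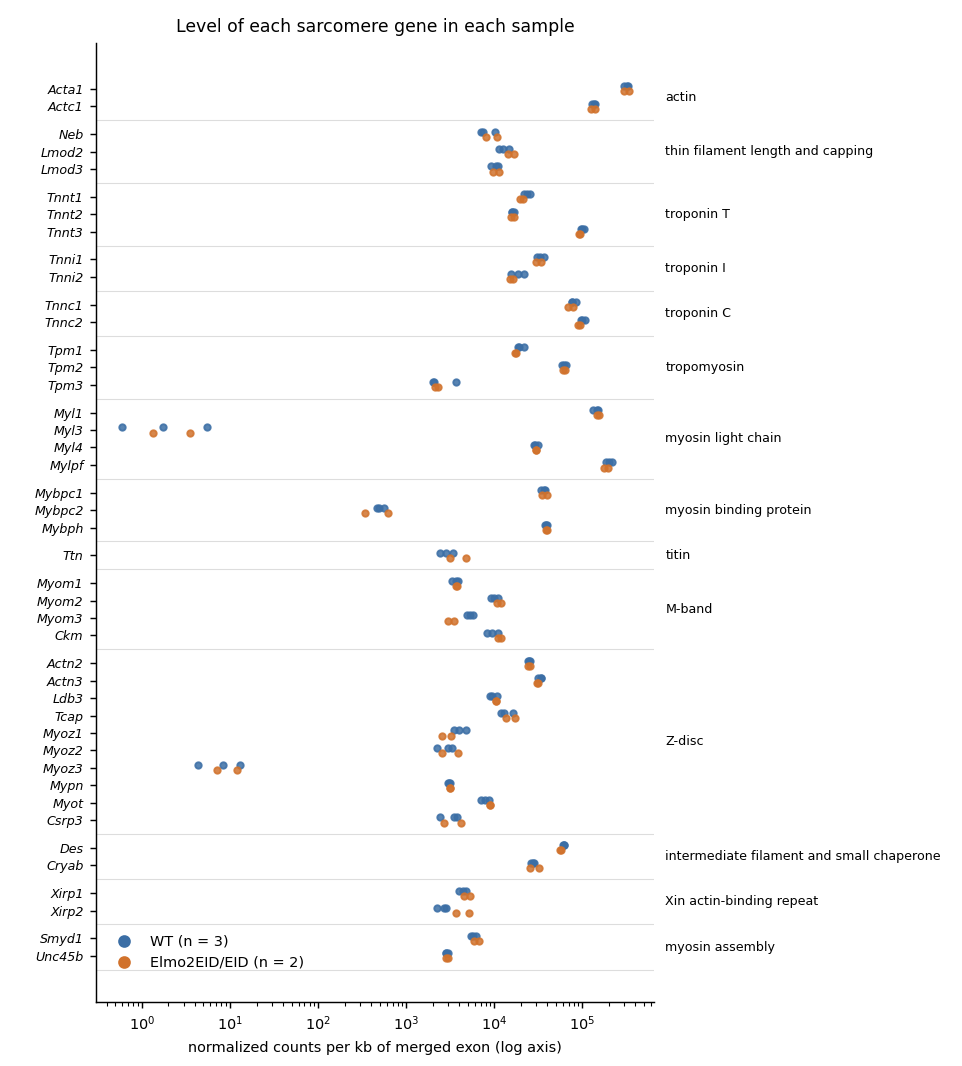
Level of each gene in each sample, in normalized counts per kb of merged exon on a log axis, grouped by role (blue, WT; orange, Elmo2EID/EID). Acta1 is the most abundant and Myl3 and Myoz3 lie far below all the others, and the samples of both genotypes lie close together in most rows.

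Neb, Lmod2 and Lmod3 set the length of the thin filament and how it is nucleated. Neb, the giant protein nebulin that runs along the filament, held 190245, 273667 and 196683 in WT, against 215187 and 289154 in Elmo2EID/EID (220198 ± 46417 against 252170.4 ± 52303, log2 fold change 0.20 ± 0.20, adjusted p = 0.706). The highest values were in WT replicate 2 and Elmo2EID/EID replicate 2, so the genotypes overlapped. Lmod2 and Lmod3, the leiomodins that nucleate actin, had log2 fold changes of 0.27 (adjusted p = 0.371) and 0.04 (adjusted p = 0.902).

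Troponin T anchors the troponin complex to tropomyosin. Tnnt3, its fast form, held 157434, 166186 and 151418 in WT, against 147872 and 145322 in Elmo2EID/EID (158346 ± 7426 against 146597 ± 1804), and although both Elmo2EID/EID samples lay below all WT samples, the log2 fold change of -0.11 ± 0.08 did not pass (adjusted p = 0.608). Tnnt1, the slow form, also had non-overlapping groups, with 48051, 51842 and 55696 in WT, against 47369 and 43647 in Elmo2EID/EID (log2 fold change -0.19, adjusted p = 0.380). Tnnt2, the cardiac form also made by fetal skeletal muscle, held 124354, 121812 and 129904 in WT, against 131615 and 119832 in Elmo2EID/EID and overlapped (log2 fold change 0.00). Per kb, the fast form made up 71.6% ± 1.82 of troponin T in WT and 71.5% ± 1.00 in Elmo2EID/EID, the slow form 16.9% ± 1.32 and 15.9% ± 0.503, and the cardiac form 11.6% ± 0.644 and 12.5% ± 0.501. These shares differed little between genotypes, but they depend on the length used, since Tnnt2 has 7752 bases of merged exon. With the longest transcript as length, 3330 bases for Tnnt2, the cardiac form was 16.1% and the fast form 62.9% in WT. The Tnnt2 transcript searched for shared sequence has 1200 bases, against 1059 for Tnnt1. By these lengths the cardiac form, with more normalized counts in every sample, would exceed the slow form. The order of the slow and cardiac forms is therefore not settled.

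Troponin I inhibits contraction at rest, and troponin C binds calcium. Tnni1, slow troponin I, held 110342, 119466 and 132037 in WT, against 122019.8 and 108218 in Elmo2EID/EID (120615 ± 10893 against 115119 ± 9759, log2 fold change -0.07 ± 0.11, adjusted p = 0.830). Tnni2, fast troponin I, held 28103, 32794 and 23504 in WT, against 24567 and 22796 in Elmo2EID/EID (log2 fold change -0.24, adjusted p = 0.475). Troponin I was the 1 troponin subunit in which the slow form exceeded the fast one per kb, with a ratio of 1.63, 1.51 and 2.34 in WT, against 2.06 and 1.97 in Elmo2EID/EID. Tnnc1, the slow and cardiac troponin C, held 80303, 78904 and 87955 in WT, against 71855 and 80916 in Elmo2EID/EID (82387 ± 4872 against 76385 ± 6407, log2 fold change -0.11 ± 0.09, adjusted p = 0.639). Tnnc2, the fast form, held 76699, 86466 and 79812 in WT, against 74774 and 71272 in Elmo2EID/EID, with both Elmo2EID/EID values below WT (log2 fold change -0.15, adjusted p = 0.463). Slow to fast troponin C, per kb, stood at 0.805, 0.701 and 0.847 in WT, against 0.739 and 0.873 in Elmo2EID/EID. With the longest transcript as length, Tnnc1 was 49.7% of troponin C in WT and 50.4% in Elmo2EID/EID, so which form leads depends on the length used. Tnnc2 lies 0.508 Mb from Elmo2 on chromosome 2, where 2 of 36 genes tested within 1 Mb of Elmo2, Slc2a10 and Sulf2, were called (5.56%, beside 2.23% of all genes tested), and a part of this neighbourhood in the value of Tnnc2 was not tested.

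Tropomyosin covers the myosin-binding sites of actin. Tpm2, beta-tropomyosin, was the most abundant with 169779, 192013 and 178368 in WT, against 186573 and 173638 in Elmo2EID/EID (180054 ± 11212 against 180105 ± 9146, log2 fold change 0.00 ± 0.10, adjusted p = 0.997). Tpm1, alpha-tropomyosin, was below WT in both Elmo2EID/EID samples, with 123293, 140589 and 120439 in WT, against 115882 and 112128 in Elmo2EID/EID (log2 fold change -0.17, adjusted p = 0.481). Tpm3, the slow form in muscle, stood apart in 1 WT sample, with 12212, 12678 and 22517 in WT, against 12929 and 13919.7 in Elmo2EID/EID (log2 fold change -0.18, interval -0.78 to 0.43), and without WT replicate 3 the log2 fold change was 0.11. Its transcript shares 755 of 2233 bases, in exact runs, with Tpm3-rs7 (46.0 to 109.4 normalized counts), so the counts of Tpm3 may miss reads that match both. Per kb, Tpm2 made up 73.5%, 73.5% and 73.4% of tropomyosin in WT, against 76.2% and 75.3% in Elmo2EID/EID, and Tpm1 24.0%, 24.2% and 22.2%, against 21.2% and 21.8%. Neither share overlapped between the genotypes, and shares of tropomyosin were not tested. These shares also depend on the length used. With the longest transcript as length, Tpm2 was 61.9% in WT and 64.7% in Elmo2EID/EID, and Tpm1 33.1% and 30.85%.

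Myosin light chains stabilise the lever arm of myosin. Myl1, the fast essential light chain, held 276826, 301986 and 313968 in WT, against 308461 and 323586 in Elmo2EID/EID (297593 ± 18957 against 316024 ± 10695, log2 fold change 0.09 ± 0.10, adjusted p = 0.752). Mylpf, the fast regulatory light chain, had a log2 fold change of -0.11, and Myl4, the embryonic and atrial light chain, held 136131, 144960.0 and 130303 in WT, against 138325 and 138863 in Elmo2EID/EID (log2 fold change 0.02). Myl3, the slow and ventricular light chain, was close to the floor of 3 reads with 3.5, 11.2 and 1.2 in WT, against 2.7 and 7.2 in Elmo2EID/EID, and its interval of -1.76 to 2.04 is too wide to show a difference at this depth.

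Myosin-binding proteins stripe the thick filament and tune its movement. Mybpc1, the slow form of myosin-binding protein C, held 169569, 167490.4 and 155699.9 in WT, against 157814 and 177796 in Elmo2EID/EID (164253 ± 7479.9 against 167805 ± 14129, log2 fold change 0.03 ± 0.10, adjusted p = 0.918). Mybpc2, the fast form, held 1758, 2006 and 1697 in WT, against 2248 and 1224 in Elmo2EID/EID, and per kb of merged exon the WT means were 36283 for Mybpc1 and 504 for Mybpc2. The Elmo2EID/EID samples were the highest and the lowest of the 5 for Mybpc2, so its log2 fold change of -0.13 (interval -0.69 to 0.43) rests on 2 samples that disagree. Mybph, myosin-binding protein H, had a log2 fold change of -0.0017 with an interval of -0.18 to 0.17.

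Titin, the spring that spans from Z-disc to M-band, is coded by Ttn, whose merged exons cover 116825 bases. Ttn held 286274, 401756 and 330705 in WT, against 370185 and 563869 in Elmo2EID/EID (339578 ± 58250.2 against 467027 ± 136956, log2 fold change 0.44 ± 0.22, adjusted p = 0.400). Elmo2EID/EID replicate 2 was the highest sample, while Elmo2EID/EID replicate 1 lay within the WT range. Without Elmo2EID/EID replicate 2 the log2 fold change was 0.14, and without Elmo2EID/EID replicate 1 it was 0.75. The 4 members with at least 10 kb of merged exon (Ttn, Neb, Xirp2 and Myom1) had a median log2 fold change of 0.32, beside 0.05 for the 1408 genes of that length tested and 0.00 for the 39 shorter members. In Elmo2EID/EID replicate 2 the median deviation of these 4 members from the WT mean was 0.58 (log2), and in Elmo2EID/EID replicate 1 it was 0.11, beside -0.16, 0.19 and -0.08 in the 3 WT samples, so that Elmo2EID/EID replicate 1 lay within the WT range. Whether this sample or transcript length plays a part in their values was not tested.

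**Figure D3:**
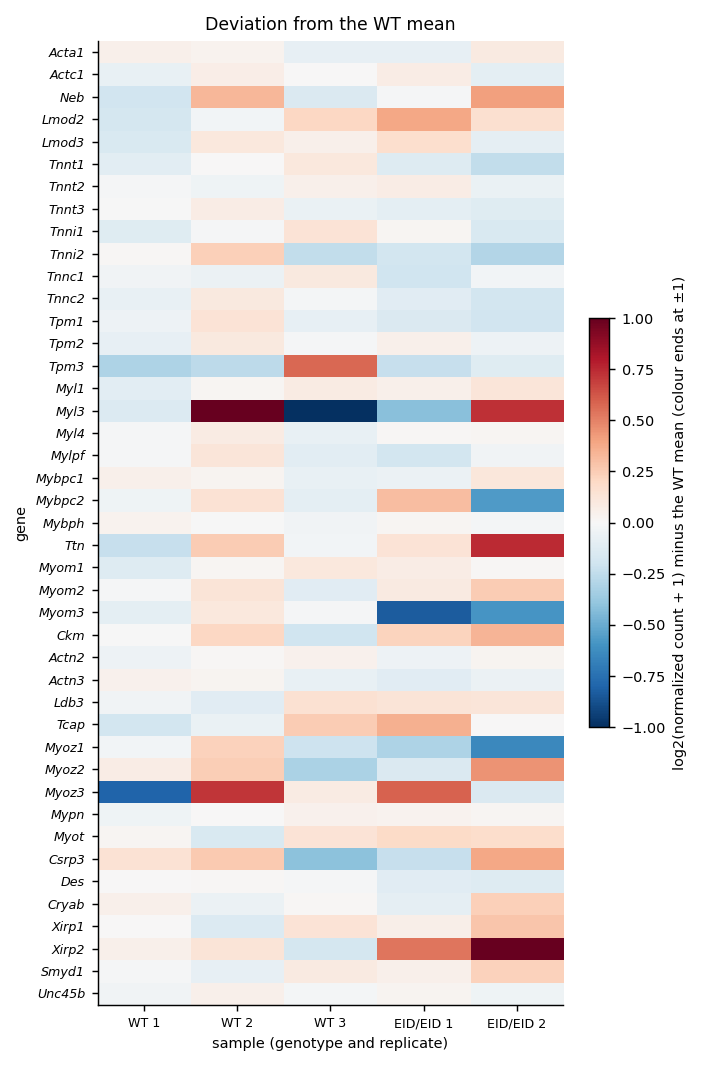
Deviation of each gene in each sample from the mean of the 3 WT samples, on the scale of log2(normalized count + 1); red is above and blue below, and colours end at 1 in either direction. Myom3 is blue in both Elmo2EID/EID columns and Xirp2 red in both, Ttn and Neb are reddest in the second Elmo2EID/EID column, and Tpm3 is red in the third WT column.

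The M-band held the member that fell. Myom3 (ENSMUSG00000037139, chromosome 4, 135759715 to 135815564, GRCm38) held 29929.8, 34507 and 31760.5 in WT, against 17992 and 21265 in Elmo2EID/EID. Both Elmo2EID/EID samples lay below all WT samples, at 32066 ± 2304 against 19628 ± 2314 (mean ± SD). The log2 fold change was -0.71 ± 0.10 (interval -0.94 to -0.48, adjusted p = 0.02, limma), and adjusted p was 0.0213 with edgeR and 3.27e-08 with DESeq2 on the recovered reads. The call was lost when Elmo2EID/EID replicate 1 (adjusted p = 0.142), Elmo2EID/EID replicate 2 (0.107), WT replicate 1 (0.0564) or WT replicate 2 (0.0617) was left out and held without WT replicate 3 (0.0469), with log2 fold changes from -0.83 to -0.59.

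The other myomesins did not fall with it. Myom2, the fast-fibre myomesin, held 87568, 96739.5 and 81752 in WT, against 94348 and 105445 in Elmo2EID/EID (88686 ± 7556 against 99897 ± 7847, log2 fold change 0.17 ± 0.10, adjusted p = 0.485), with overlapping groups. Myom1, the myomesin of all striated muscle, had a log2 fold change of 0.04. Per kb in WT, Myom2 was at 10018, Myom3 at 5311 and Myom1 at 3639 normalized counts, and in Elmo2EID/EID Myom3 was at 3251. Ckm, the muscle creatine kinase that docks at the M-band, held 27457, 31876 and 23983 in WT, against 32220.1 and 34999 in Elmo2EID/EID, with both Elmo2EID/EID values above WT, and did not pass the test (log2 fold change 0.28, adjusted p = 0.339).

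None of the 10 Z-disc genes was called by limma or edgeR, while 1, Myoz1, had an unadjusted p under 0.05 and was called by DESeq2. Over all genes the shares were 2.23%, 2.25%, 15.2% and 5.56% in that order, so these counts are near the background. Actn2 and Actn3, the alpha-actinins that cross-link thin filaments from neighbouring sarcomeres, had WT means of 24814 and 33072 normalized counts per kb of merged exon, and Actn2 held 90656, 94906 and 96945 in WT, against 90936 and 96028 in Elmo2EID/EID (94169 ± 3208 against 93482 ± 3600.0, log2 fold change -0.01 ± 0.08, adjusted p = 0.966). Myoz1, calsarcin of fast fibres, held 7507, 8960.1 and 6613 in WT, against 6168 and 4872 in Elmo2EID/EID (ENSMUSG00000068697, chromosome 14, 20649107 to 20656540). Both Elmo2EID/EID values lay below WT, and the log2 fold change of -0.48 ± 0.15 did not pass (adjusted p = 0.195 with limma, 0.184 with edgeR), while DESeq2 gave an adjusted p of 0.0476. Its slow-fibre relative Myoz2 held 10139.5, 11456 and 7732 in WT, against 8727 and 13199 in Elmo2EID/EID and overlapped (log2 fold change 0.15, adjusted p = 0.799). Myoz3, the third calsarcin, was barely detected at 15.0, 44.9 and 28.6 in WT, against 41.1 and 24.2 in Elmo2EID/EID.

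Myot, the actin-bundling protein myotilin, was above WT in both Elmo2EID/EID samples without passing the test (log2 fold change 0.19, adjusted p = 0.403). The remaining members of the disc were Ldb3, which codes for the PDZ-LIM protein ZASP, Tcap, the titin cap telethonin, Mypn, the nebulin-binding myopalladin, and Csrp3, the muscle LIM protein. Their log2 fold changes were 0.13, 0.18, 0.03 and 0.08, with adjusted p of 0.593, 0.658, 0.880 and 0.912. Mypn was the most narrowly bounded, with an interval of -0.12 to 0.17.

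Desmin filaments tie Z-discs together, and alpha-B-crystallin (Cryab) is their chaperone. Des held 229859, 232025 and 227666 in WT, against 212525 and 210096 in Elmo2EID/EID (229850.0 ± 2179 against 211311 ± 1718), and the small difference between non-overlapping groups, a log2 fold change of -0.12 ± 0.08, did not pass (adjusted p = 0.563). Cryab had a log2 fold change of 0.07 (adjusted p = 0.809). Smyd1, a methyltransferase, and Unc45b, a chaperone, serve the folding and assembly of myosin. Smyd1 held 25858, 24744 and 27867 in WT, against 27078 and 30674 in Elmo2EID/EID (26156 ± 1583 against 28876 ± 2542, log2 fold change 0.14 ± 0.09, adjusted p = 0.499), and Unc45b had a log2 fold change of -0.01 with an interval of -0.16 to 0.14.

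Xirp1 and Xirp2 code for the Xin proteins, which bind actin through repeats and sit at myotendinous junctions and at sites of myofibril growth and repair. Xirp2 (ENSMUSG00000027022, chromosome 2, 67446002 to 67526614) held 31849.7, 33594 and 27159 in WT, against 44508 and 61166 in Elmo2EID/EID. Both Elmo2EID/EID samples exceeded all WT samples, and they also differed from each other by more than the WT samples did (30867 ± 3328 against 52837 ± 11779). The log2 fold change of 0.76 ± 0.15 was just short of the threshold with limma (adjusted p = 0.0618) and edgeR (adjusted p = 0.0524), and past it with DESeq2 (adjusted p = 4.85e-05). Without Elmo2EID/EID replicate 2 it was 0.53 (adjusted p = 0.361). Xirp1 overlapped between groups, with a log2 fold change of 0.17 (adjusted p = 0.504).

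**Figure D4:**
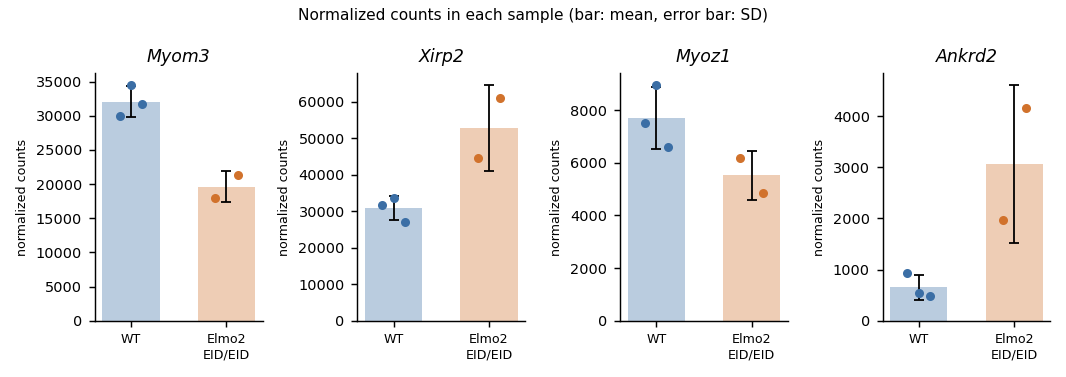
Normalized counts (vertical axis from 0) of Myom3, Xirp2, Myoz1 and Ankrd2; points are samples, bars are group means and error bars are SD (WT, n = 3; Elmo2EID/EID, n = 2). The groups do not overlap in any of the 4 panels; limma called Myom3 and Ankrd2 but not Xirp2 or Myoz1.

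Grouped by isoform, the 3 fetal genes (Actc1, Tnnt2 and Myl4) had a median log2 fold change of 0.00, the 7 slow genes -0.07 and the 9 fast genes -0.11, beside 0.01 for all genes tested, and no member of these groups was called by limma or edgeR. With 1 sample left out, the slow median ranged from -0.145 (without Elmo2EID/EID replicate 2) to -0.00875 (without WT replicate 3), with -0.128 without WT replicate 1 and -0.0244 without Elmo2EID/EID replicate 1, and the fast median ranged from -0.158 (without WT replicate 3) to -0.0707 (without WT replicate 2). DESeq2 called 1, the fast Myoz1, which was also the 1 with an unadjusted p under 0.05, beside 5.56% and 15.2% of all genes. Of the fast genes 7 of 9 had a negative log2 fold change, and in 3 (Tnnt3, Tnnc2 and Myoz1) the groups did not overlap, all 3 lower in Elmo2EID/EID, where 32.6% of all genes did not overlap and 15.9% did so in that direction. Of the slow genes 4 of 7 were negative, with Tnnt1 alone not overlapping. A total of 8 ratios between isoforms of 1 role were compared with an exact two-sided permutation test over all 10 assignments of 3 and 2 samples, which cannot give a p below 0.1.

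The difference between genotypes in the log2 ratio was -0.02 for Actc1 to Acta1 (exact p = 0.9), -0.08 for Tnnt1 to Tnnt3 (exact p = 0.8) and 0.11 for Tnnt2 to Tnnt3 (exact p = 0.4). For Tnni1 to Tnni2 it was 0.17 (exact p = 0.5), for Tnnc1 to Tnnc2 0.04 (exact p = 0.8), for Myl4 to Myl1 -0.07 (exact p = 0.5) and for Mybpc1 to Mybpc2 0.16 (exact p = 0.8). In these 7 ratios the groups overlapped, and each p was 0.9 when adjusted over the 8 ratios. Myoz2 to Myoz1, slow to fast calsarcin, was the exception, with ratios per kb of 0.747, 0.707 and 0.646 in WT, against 0.782 and 1.5 in Elmo2EID/EID. Its difference in the log2 ratio was 0.63, at the smallest p the test can give (exact p = 0.1, 0.8 adjusted over the 8 ratios), and it ranged from 0.16 without Elmo2EID/EID replicate 2 to 1.10 without Elmo2EID/EID replicate 1.

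**Figure D5:**
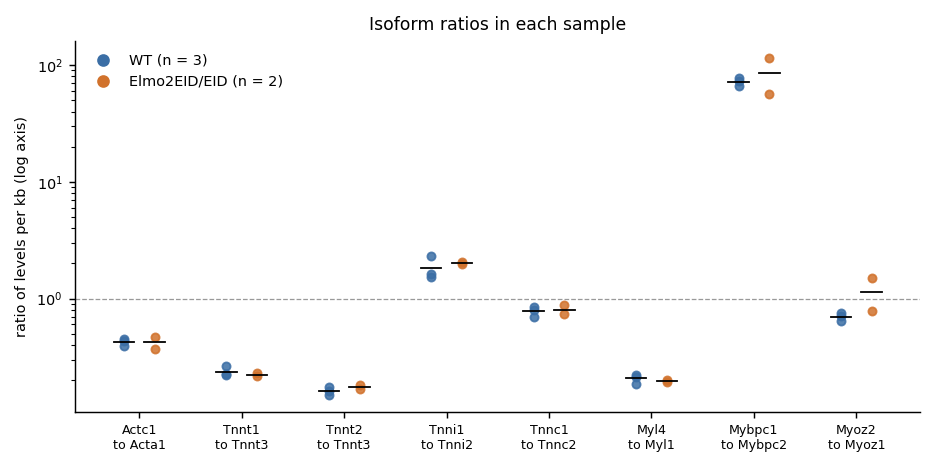
Ratio of levels per kb of merged exon for 8 isoform pairs in each sample, on a log axis (blue, WT; orange, Elmo2EID/EID; black lines, group means; dashed line, a ratio of 1). Mybpc1 exceeds Mybpc2 from 56.0 to 116-fold, and Myoz2 to Myoz1 is the 1 pair in which the groups do not overlap.

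A further 53 genes of the sarcomere were listed from the place of their proteins, and 51 were tested, since Myl7 and Mybphl stayed at or below 3 reads. Of these, Ankrd2 rose, none fell and 50 did not pass, so that 1 of 51 was called where 2.23% of all genes tested were, a share near the background. The median log2 fold change was 0.09. Ankrd2, a stretch-responsive ankyrin-repeat protein that binds titin (ENSMUSG00000025172, chromosome 19), held 934, 548 and 479 in WT, against 1968 and 4159 in Elmo2EID/EID (654 ± 245 against 3064 ± 1549). Its log2 fold change was 2.19 ± 0.37 (adjusted p = 0.0393, limma), and adjusted p was 0.0331 with edgeR, 0.00226 with DESeq2 and 0.112 with the replicate number as a block. Leaving out any 1 sample ended the call (adjusted p from 0.0506 to 0.301). Among those of the 53 with the highest mean normalized counts, neither of these passed: Flnc, filamin C, had a log2 fold change of 0.03 (adjusted p = 0.948), and Hspb8, a small heat-shock protein, -0.04 (adjusted p = 0.909). The groups did not overlap in 15 of the 51, 14 higher and 1 lower, where 16.7% and 15.9% of all genes did not.

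Markers of other cells were summed in each sample, in normalized counts. Their counts stand beside 15.2% of all genes at an unadjusted p under 0.05, 32.6% without overlap between the groups (16.7% higher and 15.9% lower), and 2.23% called by limma, 2.25% by edgeR and 5.56% by DESeq2. The 4 satellite cell markers (Pax7, Myf5, Msc and Itga7) ranged from 39888 to 43893 in WT and from 36174 to 37595 in Elmo2EID/EID, and most of each sum was Itga7, an integrin that differentiated muscle also expresses, with 35837, 40757 and 35201 in WT, against 32027 and 30620.2 in Elmo2EID/EID (adjusted p = 0.231). Pax7, Msc and Itga7 lay below all WT samples and Myf5 above them, 3 of the 4 had an unadjusted p under 0.05, and 1 was called by each of limma, edgeR and DESeq2. Pax7, the transcription factor of quiescent and activated satellite cells, fell, with 922, 942 and 837 in WT, against 414 and 298 in Elmo2EID/EID (log2 fold change -1.35, adjusted p = 0.00764), while Myf5 was 3122, 2188 and 4399 in WT, against 5152 and 5254 in Elmo2EID/EID (adjusted p = 0.237). With the replicate number as a block, limma called both (adjusted p = 0.0291 for Pax7 and 0.0490 for Myf5), beside 1.23% of all genes. The Pax7 call was lost without Elmo2EID/EID replicate 2 (adjusted p = 0.0711), without WT replicate 1 (0.0506) and in limma without the trend (0.0760). The 6 cycling-cell markers were at 2167 to 3078 in WT and 2008 to 2167 in Elmo2EID/EID, with all 6 log2 fold changes negative and none called by any of these 3 tools, though 3 had an unadjusted p under 0.05. The 8 smooth muscle and pericyte markers were at 44216 to 58338 and 50109.8 to 50571, most of it Acta2, with 42664, 46971 and 32559 in WT, against 37836 and 37715 in Elmo2EID/EID. Of the 8 log2 fold changes 4 were positive, Myh11, Cnn1 and Cspg4 lay above all WT samples, and 3 of the 8 had an unadjusted p under 0.05. Rgs5 fell and was the only 1 of the 8 called by limma (log2 fold change -2.97, adjusted p = 0.00759), a call lost without Elmo2EID/EID replicate 1 (adjusted p = 0.102), without Elmo2EID/EID replicate 2 (0.12) and in limma without the trend (0.0516). The 7 endothelial markers were at 312 to 1106 in WT and 2641 to 4010.1 in Elmo2EID/EID, where 6 of 7 were above all WT samples, beside 16.7% of all genes. The other, Cldn5, at 1.8 to 6.2 normalized counts, lay below all WT samples, beside 15.9%. WT replicate 2 was the lowest sample for each of the 6, such as Emcn with 293, 41.5 and 240 in WT, against 817 and 1439 in Elmo2EID/EID. Limma and edgeR called none of the 7, DESeq2 called 1, beside 5.56% of the genes it tested, and 5 had an unadjusted p under 0.05, beside 15.2% of all genes.

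Fibro-adipogenic markers (Lum at or below 3 reads) were at 188 to 1062.0 and 491 to 968, Schwann cell markers at 173 to 665 and 481 to 749, and macrophage markers (Ptprc at or below 3 reads) at 27.3 to 59.4 and 40.4 to 192, and none was called by limma, edgeR or DESeq2, beside 2.23%, 2.25% and 5.56% of all genes. An unadjusted p under 0.05 was seen in 2 of 5, 1 of 5 and 1 of 4 of those tested, beside 15.2% of all genes, and all of these log2 fold changes were positive. With the replicate number as a block, limma called the Schwann cell marker Ngfr (log2 fold change 2.37, adjusted p = 0.0167), beside 1.23% of all genes. Of the 7 cardiac muscle markers, Nppa, Ryr2, Myl7 and Hcn4 were at or below 3 reads in every sample. Limma called 1 of the 3 tested, Myh6, beside 2.23% of all genes. Tnni3 (log2 fold change 0.20, adjusted p = 0.874) and Nppb (1.01, adjusted p = 0.668) held at most 9.7 and 6.3 normalized counts and were not called. Myh6, the alpha heavy chain of cardiac myosin, rose, with 31.8, 33.7 and 88.3 in WT, against 1137 and 1155 in Elmo2EID/EID (log2 fold change 4.62, adjusted p = 0.00438). The Myh6 call was lost without Elmo2EID/EID replicate 1 (adjusted p = 0.0879), without Elmo2EID/EID replicate 2 (0.12) and in limma without the trend (0.0576). The part of these other cells in the values of Myom3, Xirp2 and Ankrd2 was not tested.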

How the data were processed

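Poly-A RNA of differentiated primary myoblasts, 3 WT and 2 Elmo2EID/EID samples, was sequenced in stranded paired-end libraries. Per the submitters' processing notes and the methods, the authors checked reads with FastQC (0.11.5), aligned them to GRCm38 with STAR (2.5.1b), assigned unique alignments to genes by reverse strand with featureCounts (1.4.6) and normalized with DESeq2 (1.34.0). The deposited value is a signal per gene, the read count over the sample's size factor from DESeq2. Division by the smallest positive value of a sample gave whole reads (100.0% within 0.01), 35021856 to 49381544 per sample.

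Gene names came from GENCODE M21 (54165 of 54232 identifiers matched) and promoter windows from RefSeq (GRCm38.p6). The main test was limma (3.58.1, lmFit and eBayes with a trend, two-sided) on log2(normalized count + 1). The 18156 genes that reached 5 normalized counts in any 1 sample entered it, p-values were adjusted by Benjamini-Hochberg with a threshold of 0.05, and the added 1 means that fold changes of low genes are understated. edgeR (4.0.16, quasi-likelihood) and DESeq2 (1.42.0, Wald) were run on the recovered reads. Isoform ratios and levels set side by side between genes were per kb of merged exon, while marker sums and the choice of the most abundant gene of a role or list used normalized counts, which also rise with transcript length. Sequence shared between members and other transcripts was searched with blastn (2.17.0). The code was tested on simulated data.

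Replicate numbers are shared by the genotypes, but same-numbered samples did not deviate together (correlation -0.24 over 13769 genes), so the main test has no block. Members with a call, the most abundant member of each role, the isoform pairs, called or otherwise the 3 most abundant other sarcomere genes, and markers that were called or at or below 3 reads are named in full, except that some results are not reported here. Ckm, Myot, Myf5, Xirp2 and Myoz1 among others were described more closely after their values were seen. The members and all lists were chosen with earlier results of these data known.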

Additional observations from a re-analysis of the deposited data

How the results depend on the processing

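With edgeR, TMM factors, pseudocounts of 0.5 or 5, equal totals or quantile normalization, the counts stayed within 1.5 times those reported. Over all genes (404 called), 961 were called with DESeq2, 144 without the trend, 244 when a mean of 50 normalized counts was required, 155 with no filter and 34 to 335 with 1 sample left out, the lowest without Elmo2EID/EID replicate 2. Of the members (0 higher, 1 lower), DESeq2 called 1 higher and 2 lower. None was called lower without the trend (Myom3 adjusted p = 0.129) or with no filter (0.0845), and 0 to 1 with 1 sample left out. Of the other sarcomere genes (1 called), 2 were called with DESeq2 (Ankrd2 and Mlip) and 0 without the trend, with the required mean of 50, with no filter and with any 1 sample left out. The cause of these differences was not tested.

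When replicate number entered as a block, 224 genes, 0 members higher, 1 member lower (Myom3) and 0 other sarcomere genes were called. The block also takes WT replicate 3, which has no partner, out of the fold changes. With the numbers crossed, a pairing added after the correlation was seen, 1041 genes, 2 members higher, 3 members lower and 4 other sarcomere genes were called.

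With 1 sample left out, the log2 ratio difference turned in direction for Actc1 to Acta1 (-0.191 to 0.156), Tnnt1 to Tnnt3 (-0.127 to 0.00754), Tnnc1 to Tnnc2 (-0.0823 to 0.158) and Mybpc1 to Mybpc2 (-0.365 to 0.684), and the fetal median ranged from -0.0645 to 0.0708. In 21 members, none of them called by any fit and with 0.22 the largest of their log2 fold changes, the sign of the log2 fold change depended on the alternative tried. Myl3 and Myoz3 had the fewest reads of the members, which limits what depth can show for them.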
